A study of Mus musculus with 2 samples.

Results

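The genes described here are those of de novo fatty acid synthesis, chosen by name: Acly, Acaca, Acacb, Fasn, Elovl5, Elovl6, Scd1, Scd2, Me1 and Thrsp. Of these 10 genes, 9 have a probe set with that symbol in the platform annotation, 1 probe set each, out of 19505 symbols on the array. Scd2 has none there and is not analysed here. The study disrupted *Iah1* to learn whether its loss changes lipid storage, and the arrays ask which transcripts of visceral fat differ without it. The gene is named as the homolog of an esterase, and the paper calls the role of the mouse protein largely unknown.

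KO_A12 mice (genotype Iah1-KO) carry a frameshift deletion in the first exon of *Iah1*, made by CRISPR/Cas9 on the A/J-12SM background, which is the A/J strain with chromosome 12 of SM/J. WT_A12 mice (genotype Iah1-WT) are the A/J-12SM strain itself. The KO_A12 line was kept by mating homozygotes, so that the WT_A12 mice were not its littermates. Both groups were male, began the high-fat diet at 6 weeks of age, ate it for 12 weeks and were fasted for 4 h before the tissue was taken. RNA from the epididymal fat of 3 mice was pooled for each genotype, and each pool was measured on 1 Clariom S Mouse Array, which gives 1 signal on the log2 scale for each probe set, a group of short oligonucleotides for the transcripts of a gene. With 1 array per genotype there is no spread between mice, and no difference below has an error or a p-value. A log2 difference is always KO_A12 minus WT_A12, so that 1 stands for a 2-fold higher signal in the KO_A12 pool. Signals of different genes are not set against each other, since probes differ in their brightness.

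Fat makes fatty acids from glucose by carrying mitochondrial citrate into the cytosol, cutting it to acetyl-CoA, carboxylating this to malonyl-CoA and joining the units to palmitate at the cost of NADPH. Palmitate is then elongated and desaturated, so that much of the product is stored as oleate in triglyceride. In mice the genes of this pathway are induced together by insulin and sugar through SREBP-1c and ChREBP, and a diet rich in fat and a fast both keep them low.

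The promoter windows of 4 of these genes are shown as examples. That of Acly holds the GC box GGGCGG, those of Fasn and Thrsp the NF-Y box CCAAT, and that of Elovl6 none of the motifs searched. RefSeq windows on GRCm38.p6 were found for 8 of the 10 genes, and the last 120 bases before an annotated transcript start are printed from 5′ to 3′ along the gene, with matches in capitals. The Acly window lies at chr11:100528001-100528120 on the minus strand, that of Fasn at chr11:120824548-120824667 on the minus strand, that of Thrsp at chr7:97417551-97417670 on the minus strand and that of Elovl6 at chr3:129532266-129532385 on the plus strand. The Fasn window precedes a transcript start that lies inside the gene's RefSeq span, while the other 3 printed windows lie outside their genes.
Acly: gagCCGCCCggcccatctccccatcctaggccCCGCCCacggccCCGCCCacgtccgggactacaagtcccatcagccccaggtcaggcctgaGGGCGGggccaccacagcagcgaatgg
Fasn: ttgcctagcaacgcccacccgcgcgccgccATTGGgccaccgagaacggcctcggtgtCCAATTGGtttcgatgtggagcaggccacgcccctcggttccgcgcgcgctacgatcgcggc
Thrsp: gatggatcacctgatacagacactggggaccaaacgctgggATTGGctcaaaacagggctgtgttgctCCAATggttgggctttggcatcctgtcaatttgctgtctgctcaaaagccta
Elovl6: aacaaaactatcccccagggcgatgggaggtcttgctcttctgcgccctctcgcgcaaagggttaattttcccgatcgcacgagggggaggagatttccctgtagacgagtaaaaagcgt

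The motifs were searched on both strands of the 250 bases before each start. The NF-Y box CCAAT was found in 5 of the 9 windows of these genes (Me1 has 2 windows), against 33.8% of all 32851 RefSeq windows. It lies in the windows of Fasn, Thrsp, Elovl5, Acacb and Me1, and in Fasn a match on each strand overlaps in the run CCAATTGG. As for Fasn, the windows of Acaca and Acacb and the Me1 window with this box precede a start inside the gene's RefSeq span. The GC box GGGCGG was found in 2 windows, against 32.7% of all, with 4 matches in Acly and 3 in 1 window of Me1. The E-box CACGTG, which USF and ChREBP bind, was in that of Elovl5 alone, against 6.0% of all windows. The sterol regulatory element core TCACNCCAC was in none of the 9, against 1.1% of all. In the windows of Acaca and Elovl6 none of the 4 motifs was found, which says only that these letters are not in those bases. A match is not a measured site.

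All 9 measured genes differed little between the pools. Their log2 differences ran from -0.32 for Elovl6 to 0.49 for Acacb, with a median of 0.15, beside a median of 0.0003 over all 22206 probe sets. The KO_A12 signal was above the WT_A12 signal for 7 of the 9, beside 50% of all probe sets and 44.3% of the 10181 with a mean signal over 7. By the study's cutoffs, a 2-fold difference with a log2 signal over 7 on the higher array, 0 of the 9 were called higher, beside 0.567% of all probe sets, and 0 were called lower, beside 0.757%. At 1.5-fold the counts were again 0 higher, beside 2.19% of all, and 0 lower, beside 3.71%. With shares this small over all probe sets, counts of 0 among 9 genes do not set the pathway apart. For every one of the 9 genes the difference lay inside the middle 95% of those of the 500 probe sets nearest to it in mean signal, a description of the scatter between these 2 arrays and not a test of the genotype.

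**Figure D1:**
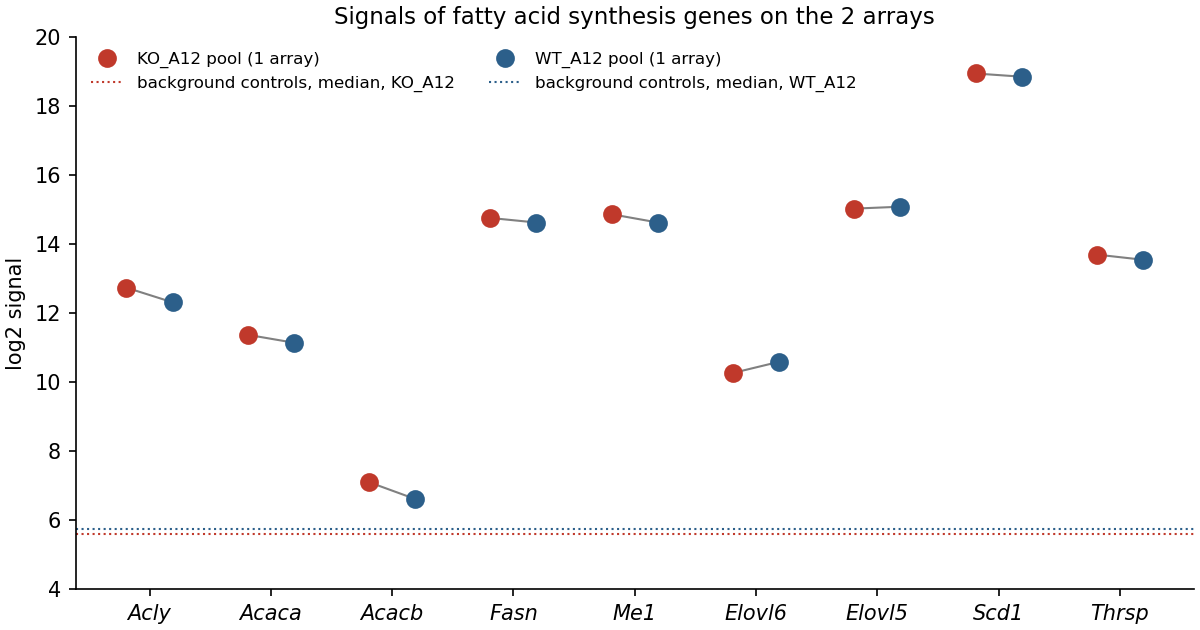
Log2 signals (y axis) of the 9 measured fatty acid synthesis genes (x axis), with a red point for the KO_A12 pool on the left and a blue point for the WT_A12 pool on the right, each from 1 array, and dotted lines for the 23 background controls (medians 5.61 in KO_A12 and 5.75 in WT_A12). The points of each gene lie close together, and those of Acacb lie near the dotted lines.

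The first enzymes turn citrate into malonyl-CoA. Acly, which cuts cytosolic citrate to acetyl-CoA (chromosome 11, 100476352 to 100528000, GRCm38.p6), had a log2 signal of 12.73 in the KO_A12 pool, against 12.31 in the WT_A12 pool. This is a log2 difference of 0.42, or 1.34-fold, and 93.6% of its 500 nearest probe sets had a lower one, the highest such share among the 9 genes. Their middle 95% ran from -0.62 to 0.56.

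Acetyl-CoA carboxylase exists in 2 forms. Acaca (chromosome 11, 84129635 to 84401651) encodes the cytosolic form that feeds synthesis, and its log2 signal was 11.37 in the KO_A12 pool and 11.14 in the WT_A12 pool, a log2 difference of 0.23. Acacb (chromosome 5, 114146321 to 114250761) encodes the form on the mitochondrial surface, whose malonyl-CoA holds back fatty acid oxidation. Its log2 signal was 7.10 in the KO_A12 pool, against 6.61 in the WT_A12 pool. The log2 difference of 0.49, or 1.4-fold, was the largest of the 9. Acacb also lay close to the background controls, 1.49 above their median on the KO_A12 array and 0.86 above it on the WT_A12 array. At that signal the arrays scattered more than at the higher signals of the other members, as the middle 95% of its 500 nearest probe sets ran from -0.93 to 1.23, and 84.2% of them had a lower difference, against 82.6% for Acaca. Acacb passed a signal of 7 only on the KO_A12 array.

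Fatty acid synthase and its NADPH source had bright, close signals. Fasn (chromosome 11, 120805958 to 120825166), the multidomain enzyme that builds palmitate, had a log2 signal of 14.75 in the KO_A12 pool and 14.62 in the WT_A12 pool, a log2 difference of 0.13 or 1.10-fold. Among probe sets of like signal 71.4% were lower. The paper also measured Fasn in epididymal fat by real-time qPCR in replicate mice of both genotypes, and reports no significant difference. Me1 (chromosome 9, 86581363 to 86695914), the cytosolic malic enzyme that turns malate into pyruvate and supplies NADPH, had a log2 signal of 14.86 in the KO_A12 pool and 14.62 in the WT_A12 pool. Its log2 difference was 0.24, and 85.6% of the nearest probe sets lay below it.

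**Figure D2:**
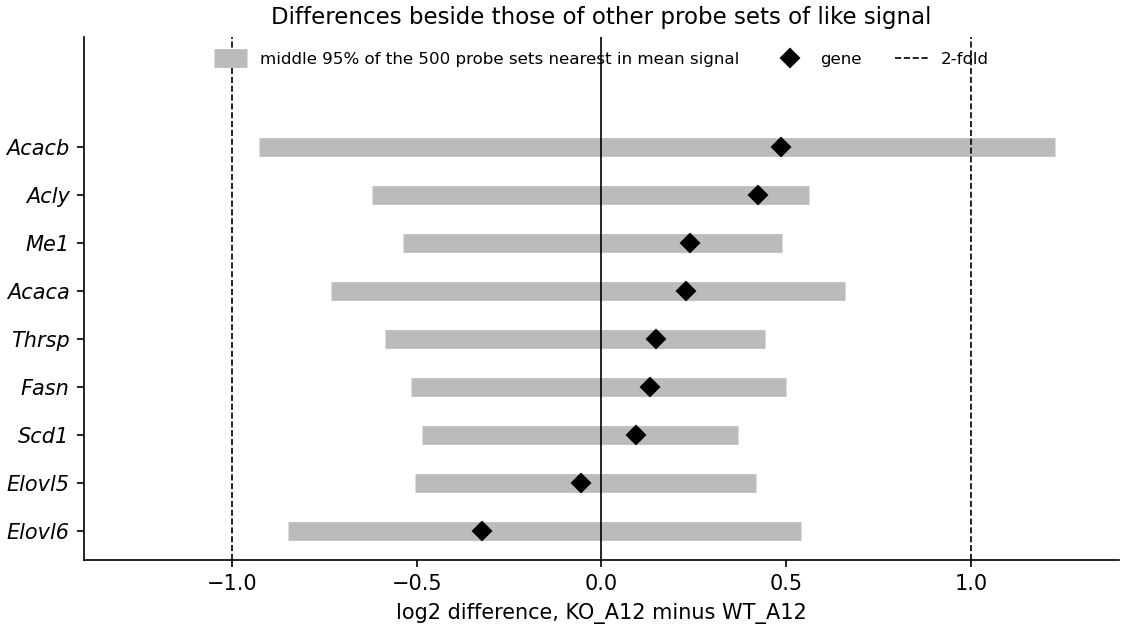
Log2 difference of each gene, KO_A12 minus WT_A12 (x axis, diamonds), from Acacb at 0.49 at the top to Elovl6 at -0.32 at the bottom. Grey bars hold the middle 95% of the differences of the 500 probe sets nearest in mean signal and dashed lines mark 2-fold. Every diamond lies within its grey bar, and the bar of Acacb is the widest.

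The elongases of the list had lower signals in the KO_A12 pool, each inside the scatter of its nearest probe sets. Elovl6 (chromosome 3, 129532386 to 129638495), which lengthens palmitate to stearate, had a log2 signal of 10.26 in the KO_A12 pool, against 10.59 in the WT_A12 pool. It had the lowest log2 difference of the 9, -0.32, with a 1.25-fold higher signal in WT_A12, and 20.2% of its nearest probe sets had a lower difference. Elovl5 (chromosome 9, 77917365 to 77984519), which acts mainly on polyunsaturated fatty acids, had log2 signals of 15.02 in the KO_A12 pool and 15.08 in the WT_A12 pool, a log2 difference of -0.06. These were the only 2 of the 9 genes with a lower signal in the KO_A12 pool.

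Scd1 (chromosome 19, 44394450 to 44407709), the desaturase that makes oleate and palmitoleate, had a log2 signal of 18.94 in the KO_A12 pool and 18.84 in the WT_A12 pool, a log2 difference of 0.09. The highest signals of any probe set were 19.26 on the KO_A12 array and 19.23 on the WT_A12 array, and whether Scd1 was near saturation was not tested. The Scd genes are alike in sequence and may share signal, so the value of a single one is uncertain. Thrsp (chromosome 7, 97412933 to 97417550), or Spot 14, is a small protein without known enzyme activity of its own that promotes lipogenesis and is induced by thyroid hormone and sugar. Its log2 signal was 13.69 in the KO_A12 pool and 13.54 in the WT_A12 pool, a log2 difference of 0.15, the middle value of the 9.

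**Figure D3:**
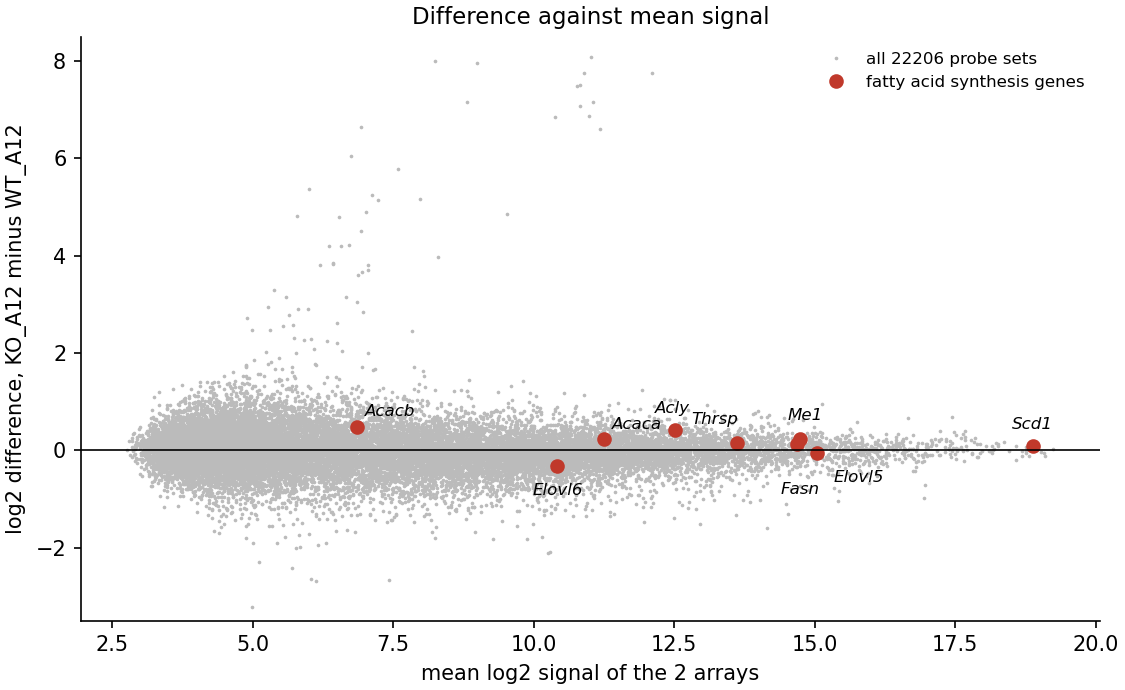
Log2 difference, KO_A12 minus WT_A12 (y axis), against the mean log2 signal of both arrays (x axis) for all 22206 probe sets (grey) and the 9 fatty acid synthesis genes (red). The grey cloud narrows with signal, and all 9 genes lie within it between -0.32 and 0.49.

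Carbon and reducing power reach the pathway through other genes, of which 11 of 13 listed were measured. Their log2 differences had a median of 0.14, with 8 above 0 and 3 below. In either direction 0 passed 1.5-fold, beside 2.19% higher and 3.71% lower of all probe sets with a signal over 7 required. Slc25a1, the citrate carrier of the inner mitochondrial membrane, had log2 signals of 15.71 in the KO_A12 pool and 15.59 in the WT_A12 pool, a log2 difference of 0.12. The cytosolic NADPH makers Idh1, at 0.15, and Pgd of the pentose phosphate pathway, at 0.15, had differences of like size. Acss2, which activates acetate, was at -0.04, and Me2, a mitochondrial malic enzyme, at -0.18. G6pdx and Tkt have no probe set of that symbol in the annotation and are not analysed here.

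Among 17 other genes of elongation and desaturation 14 had a log2 difference above 0, with a median of 0.22. With a signal over 7, 0 passed 1.5-fold, beside 2.19% higher and 3.71% lower of all probe sets. Hacd1, a dehydratase of the elongation cycle, had log2 signals of 14.41 in the KO_A12 pool and 14.07 in the WT_A12 pool, a difference of 0.33, while Hacd4, a further member of that family, was at -0.49 (11.24 in the KO_A12 pool and 11.73 in the WT_A12 pool). The desaturases of polyunsaturated fatty acids, which are neighbours on chromosome 19, lay on opposite sides of 0. Fads2, the first desaturase of that route, had log2 signals of 11.08 in the KO_A12 pool and 10.60 in the WT_A12 pool, a difference of 0.48, and Fads1, which acts after it, had 10.95 in the KO_A12 pool and 11.20 in the WT_A12 pool, a difference of -0.25. Among the 500 probe sets of nearest signal, 94.8% had a lower difference than Fads2, and 22.6% a lower one than Fads1.

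The median of that list rests partly on weak probe sets. Elovl2, Elovl3, Elovl4, Elovl7 and Scd4 had signals below the background controls' median on both arrays, and all 5 had a difference above 0. All of these but Elovl3 were named after their values were seen. The largest was that of Elovl2, which elongates polyunsaturated fatty acids and is expressed in liver, with log2 signals of 5.26 in the KO_A12 pool and 3.73 in the WT_A12 pool, and Elovl3, an elongase of brown fat, liver and skin, had 5.33 in the KO_A12 pool and 4.35 in the WT_A12 pool. Among the genes with a mean signal over 7 the median was 0.06.

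Transcription factors that drive the pathway lay on both sides of 0. Of 19 measured regulators 8 had a log2 difference above 0 and 11 below, with a median of -0.06. Mlxipl, which encodes ChREBP, had log2 signals of 9.88 in the KO_A12 pool and 10.04 in the WT_A12 pool, a difference of -0.16. Nr1h3, the oxysterol receptor LXR alpha, which induces SREBP-1c, was at 0.12, Srebf2, the factor of cholesterol synthesis, at -0.07 and Pparg, the receptor that governs adipocyte genes, at 0.07. Cebpa, its partner in adipogenesis, was at -0.18. The paper measured Pparg and Cebpa in epididymal fat by real-time qPCR in replicate mice, and reports no significant difference for either.

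The retention protein of SREBP, Insig1, is itself an SREBP target, and its log2 signal was 13.96 in the KO_A12 pool and 13.84 in the WT_A12 pool, a difference of 0.12. Insig2, its relative, was at -0.49, with 8.14 in the KO_A12 pool and 8.63 in the WT_A12 pool. Thra, a thyroid hormone receptor, had the highest difference of the list, 0.50. Nfyc, a subunit of the NF-Y factor that binds the CCAAT box shown above, had the lowest, -0.59, with 10.60 in the KO_A12 pool and 11.19 in the WT_A12 pool. It was the only gene of the 5 pathway lists past 1.5-fold with a signal over 7, and 6.6% of its 500 nearest probe sets were lower. Over all probe sets 2.19% passed these cutoffs higher and 3.71% lower, so a single such gene does not set the lists apart. Srebf1, which encodes SREBP-1c, was not analysed here, as no probe set has that symbol in the annotation. By real-time qPCR in epididymal fat of replicate mice, the paper reports no significant difference in SREBP-1c mRNA.

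Genes that modify the enzymes differed as little. AMPK phosphorylates acetyl-CoA carboxylase and shuts it down, and its catalytic subunits Prkaa1 and Prkaa2 had log2 differences of 0.0041 and -0.12. Prkag1, a regulatory subunit of AMPK, was at 0.37, with log2 signals of 11.94 in the KO_A12 pool and 11.56 in the WT_A12 pool. Mid1ip1, a relative of Thrsp that promotes the assembly of acetyl-CoA carboxylase into active polymers, had the lowest difference of these 13 genes, -0.43, from weak signals of 6.87 in the KO_A12 pool and 7.30 in the WT_A12 pool, and Btd, which recycles biotin, was at -0.26. The list's median was 0.04, with 8 above 0 and 5 below. The separate fatty acid synthesis of mitochondria, which supplies lipoate, had 7 of 8 measured genes above 0 and a median of 0.18. Its highest value was that of Lipt2, a transferase of lipoate synthesis, at 0.36, with log2 signals of 8.25 in the KO_A12 pool and 7.90 in the WT_A12 pool, followed among signals over 7 by Oxsm, its ketoacyl synthase, at 0.19 and Mecr, its enoyl reductase, at 0.18.

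**Figure D4:**
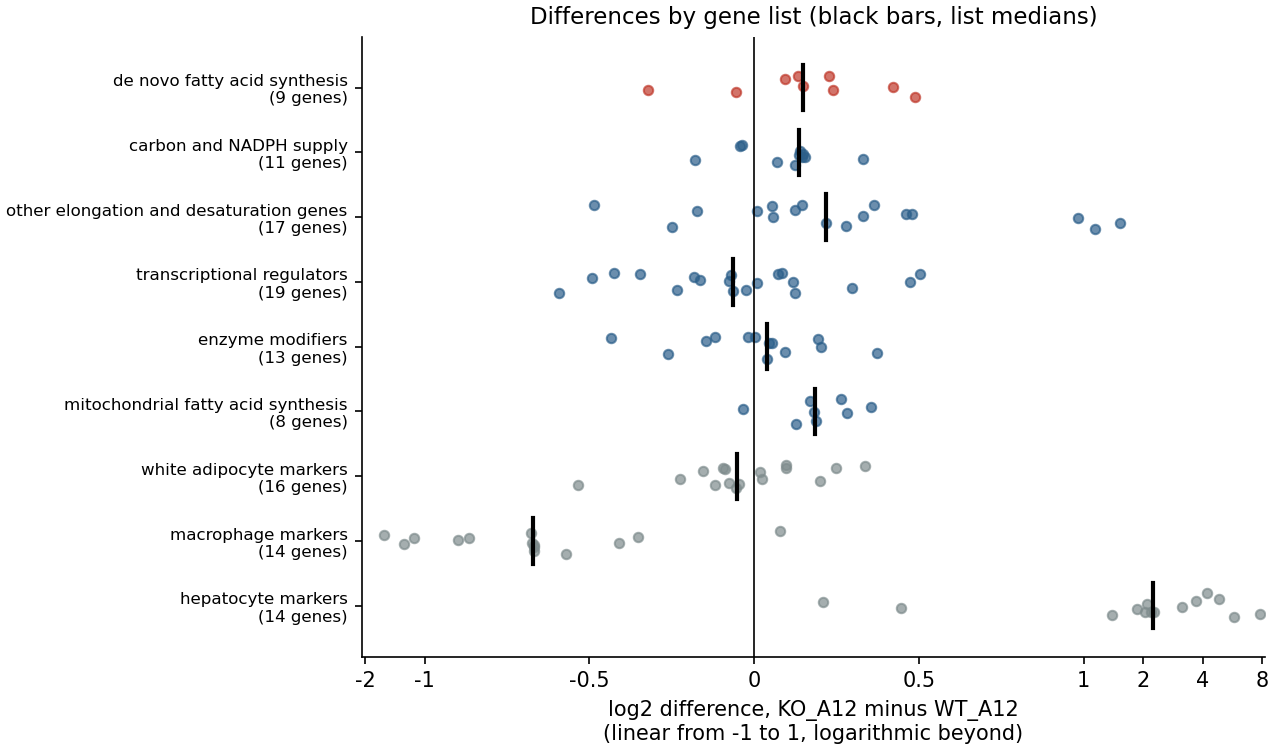
Log2 differences, KO_A12 minus WT_A12 (x axis, linear from -1 to 1 and logarithmic beyond), of the genes of 9 lists (rows), with 1 point for each gene and a black bar at the list median. The de novo fatty acid synthesis genes (red, median 0.15) and the white adipocyte markers (median -0.05) lie near 0, while the macrophage markers (median -0.67) lie to the left and the hepatocyte markers (median 2.24, with 12 of 14 under the background controls in WT_A12) to the right.

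Markers of adipocytes and of other cells differed between the pools to unlike degrees. Of 16 measured white adipocyte markers, 7 were above 0 and 9 below, with a median log2 difference of -0.05. Their summed level was 21.49 on the log2 scale in the KO_A12 pool and 21.48 in the WT_A12 pool. The sum weighs the brightest probe sets most, such as Fabp4, at 19.05 in the KO_A12 pool and 19.10 in the WT_A12 pool. Whether these were near saturation was not tested. Among them Retn, the gene of resistin, was at 0.34, Lpl, lipoprotein lipase, at 0.25 and Gpd1, which makes glycerol 3-phosphate, at -0.53. All 14 hepatocyte markers were above 0, with a median of 2.24. Signals were under the background controls' median for 2 of them in the KO_A12 pool and 12 in the WT_A12 pool. Most of these differences therefore have no exact size. Over the genes with a mean signal over 7 (Alb, Ttr, Ahsg and Cyp2e1) the median was 4.74. Ttr and Ahsg passed only through the KO_A12 array, with WT_A12 signals of 4.69 and 5.19 under the background controls' median. The 4.74 thus has no exact size either. The summed level of 16.20 in the KO_A12 pool was mostly that of Alb, and that of 12.70 in the WT_A12 pool mostly that of Cyp2e1, a cytochrome P450 at 12.76 in the KO_A12 pool and 12.55 in the WT_A12 pool, so the sums follow different probe sets. Alb, serum albumin, had log2 signals of 15.99 in the KO_A12 pool and 8.22 in the WT_A12 pool, Ttr, the thyroid hormone carrier of plasma, had 10.47 in the KO_A12 pool and 4.69 in the WT_A12 pool, and Fgg, a fibrinogen chain, had 8.20 in the KO_A12 pool and 3.38 in the WT_A12 pool. Liver also uses genes of this pathway, and the part of hepatocyte RNA in the differences of the 9 fatty acid synthesis genes was not tested.

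Macrophage markers lay on the other side, with 13 of 14 below 0, a median of -0.67 and a summed level of 17.13 in the KO_A12 pool and 17.82 in the WT_A12 pool. Gpnmb was at -1.60, Trem2 at -1.27 and Cd14 at -1.13. All 7 seminal vesicle genes were above 0, with a summed level of 13.92 in the KO_A12 pool and 7.25 in the WT_A12 pool. Their WT_A12 signals were all under the background controls' median, so that their differences have no exact size. Svs5 had log2 signals of 12.25 in the KO_A12 pool and 4.25 in the WT_A12 pool, Svs2 had 12.96 in the KO_A12 pool and 5.01 in the WT_A12 pool, and Svs4 had 9.78 in the KO_A12 pool and 3.73 in the WT_A12 pool. All 9 fibroblast and progenitor genes were below 0, with a median of -0.42 (Mfap5 at -1.51, Lum at -1.31 and Pi16 at -1.0). These lists lay on both sides of 0, the white adipocyte list near it. All 7 endothelium genes were above 0 with a median of 0.34 (Cldn5 at 0.91, Emcn at 0.53 and Pecam1 at 0.40) as were all 6 mesothelium genes with one of 0.67 (Upk1b at 0.97, Upk3b at 0.90 and Msln at 0.84). The 6 brown and beige adipocyte markers had 3 genes above 0 and 3 below, and their median of 0.02 turned to -0.51 as a mean. Ucp1, the uncoupling protein of brown fat, had log2 signals of 4.78 in the KO_A12 pool, under the background controls' median, and 7.47 in the WT_A12 pool, so its difference has no exact size, while Cidea was at -1.42 and Cox7a1 at 0.60. The paper remeasured Cidea in epididymal fat by real-time qPCR and reports that its change on the array was not borne out. The part of all these cell types in the values of the fatty acid synthesis genes was not tested. In pooled tissue fewer cells of a type and less RNA per cell cannot be told apart. The targeted gene *Iah1* had log2 signals of 8.35 in the KO_A12 pool and 9.52 in the WT_A12 pool, a log2 difference of -1.17. The KO_A12 signal was 2.74 above the background controls' median. No source used here says where the probes lie relative to the deletion, and the value therefore does not check the knockout. The paper checked it by other means, and reports no detectable *Iah1* mRNA by real-time qPCR or IAH1 protein by western blot in KO_A12 mice.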

How the data were processed

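RNA of epididymal fat from 3 mice per genotype was pooled and 100 ng labelled for each of 2 arrays. The deposited log2 signals are the authors' output of SST-RMA (spelled STT-RMA by them), run in GeneChip Console Software 1.3.0, a robust multi-array average with background correction and scaling between arrays. RMA is also what the submitters' processing notes name, whereas a genome build is not given in the sources used here. That transformation and scaling between 2 arrays set every difference reported.

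Of 28846 rows 6640 controls were left out. Symbols came from the platform annotation, which names 19572 of 22206 probe sets, and gene positions from RefSeq on GRCm38.p6 through the Entrez ID. In a list each gene counts once, with its brightest probe set. Calls need a log2 difference past 1 (or 0.58 for 1.5-fold) and a log2 signal over 7 on the higher array. The methods' t-test was not applicable to 1 array a group. No precision could be computed, since neither pool was measured again.

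The genes and lists were chosen with earlier results of these data known. Named are all measured members, pathway genes picked for their role, *Iah1*, and from every list the genes of largest difference in either direction, 3 at most, if either array had a signal over 7. Elovl2, Elovl4, Elovl7 and Scd4 were added after their values were seen, and Fabp4, Cyp2e1 and Ahsg are also named outside this rule. Other scalings, cutoffs and members were tried as alternatives. The computation was tested on simulated data, with planted changes larger than the difference of any member and on probe sets brighter than Acacb. It therefore does not test differences as small as those of the members. Python 3.11.15, numpy 2.4.6, pandas 2.3.3, statsmodels 0.14.6 and matplotlib 3.10.9 were used.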

Additional observations from a re-analysis of the deposited data

How the results depend on the processing

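No paired analysis was possible because 1 pooled array stands for each genotype and the labels carry no replicate numbers. For the same reason no array could be left out. Without replicates, a gene was taken as unmoved when it shifted by less than the robust spread among its 500 nearest probe sets, and a list median when it shifted by less than that value divided by the square root of the number of genes. Under median centring, quantile normalization and removal of a lowess trend (span 0.3), 0 of 27 values of the 9 fatty acid synthesis genes changed sign. Median centring shifts every difference by the same amount, smaller than each of the 9 differences, so it could turn none of these signs. Elovl6 ran from -0.33 to -0.25, Acly from 0.42 to 0.44 and Scd1 from 0.05 to 0.09. All 3 scalings were applied on top of that of the authors. The counts of called genes were 0 in each direction under every cutoff of signal and fold tried, down to 1.5-fold. The median of the fatty acid synthesis genes ran from 0.14 to 0.19 with 1 gene left out in turn, and over all 15 alternatives from 0.13 to 0.19. Of the 69 alternatives for counts and pathway medians, 67 were unmoved, but some of these could not have moved. Under every scaling the differences of the fatty acid synthesis genes stayed between -0.33 and 0.50. That is short of the 0.58 of 1.5-fold, so each count had to be 0. Each listed gene has 1 probe set, so a mean over the probe sets of a gene could not change a median. Nor could median centring move a list median, since its shift is smaller than every limit used. Leaving out 1 fatty acid synthesis gene can only bring their median to a mean of values next to it. That shift is short of the limit of 0.0757 for this list. The exceptions among the 69 were those of the other elongation and desaturation genes. Their median of 0.22 became 0.31 when the mean was taken instead. It became 0.0585 when only genes of a mean signal over 7 were kept, which leaves 11 of 17 genes. Of 75 further alternatives, for single genes and marker lists, 7 moved. The hepatocyte median of 2.24 became 3.0 as a mean and 4.74 at a mean signal over 7, and the seminal vesicle median of 5.36 became 5.67 and 7.98 in the same way. Of the seminal vesicle genes only Svs2 and Svs5 have a mean signal over 7, both through the KO_A12 array alone. Among the hepatocyte genes kept, Ttr and Ahsg passed in that way too. The cutoff thus favours genes high in the KO_A12 pool, and neither 4.74 nor 7.98 has an exact size. The mean was -0.65 for the fibroblast genes (median -0.42) and -0.51 for the brown and beige adipocyte genes (median 0.02, so the direction turned), and the mesothelium median of 0.67 became 0.90 at a mean signal over 7. The depth limit here is signal over background, and differences of genes near the background controls, such as Acacb, are the least certain.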
